A study of Homo sapiens with 9 samples.

Results

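The response of HT-29 cells to 10 µM 5-Aza was measured against the vehicle control in 6 of the 9 RNA-Seq samples of the study, the 3 cultures labelled 10 µM and the 3 labelled 0 µM. HT-29 is an established human colon cancer line, so every sample is 1 cell line. The 0 µM cultures received dimethyl sulfoxide (DMSO) alone, the 10 µM cultures received 5-aza-deoxycytidine (5-Aza), and both were kept for 5 days. The labels name no other agent or allele. A further 3 cultures at 5 µM are used only where their values are given beside the others. Pathways and families were described across all genes of the 6 samples.

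5-Aza is a cytidine analog that cells phosphorylate and build into new DNA in place of deoxycytidine. DNA methyltransferases bind it and are trapped, so methylation at CpG dinucleotides is lost as cells divide, and genes silenced by promoter methylation can be transcribed again. The trapped enzymes are also a form of DNA damage. Methylation is known for silencing germ cell genes in somatic cells, 1 allele of imprinted genes and, in colon tumors, a set of marker genes.

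The deposited values were FPKM per gene symbol and are given here as levels in kFPKM (1000 FPKM). They were far larger than is usual for this unit, and 1 fragment on a gene of 2000 nt was worth between 0.354 and 0.755 kFPKM, so levels below about 1 kFPKM rest on very few fragments. On a shorter gene 1 fragment was worth more, so there higher levels can also rest on few fragments. Estimated depth was 17.9, 26.8 and 33.5 M fragments (M, 10 to the power of 6) in control replicates 1, 2 and 3 and 13.2, 29.3 and 19.6 M in the 10 µM replicates. Testing took the 16682 of 23284 symbols that reached 1 kFPKM in at least 1 of the 6 samples. The test was limma on log2(FPKM + 1000), and a call up or down needed a p of at most 0.05 after Benjamini-Hochberg adjustment together with a difference above 1 or below -1. Every log2 difference is on this scale, as 10 µM minus control with its standard error (SE), and understates the change of genes near 1 kFPKM. The smallest p of an exact permutation test of 3 samples against 3 is 0.1, so the calls rest on the fit across all genes.

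In total 888 genes (5.32%) were called up and 721 (4.32%) were called down. Overall scale differed between samples, with totals of 5.91, 5.65 and 5.19 M kFPKM in the control replicates and 3.69, 5.08 and 4.20 M kFPKM in the 10 µM replicates, where replicate 2 stood nearest the controls. The median log2 ratio of the group means was -0.22 over the 15300 genes above 0 in all 6 samples, and the median log2 difference of all tested genes was -0.18. After each sample was divided by its median ratio to the geometric means of those 15300 genes (median-of-ratios scaling, called scaling below), the median of all tested genes was 0.04. With scaling 1273 genes (7.63%) were called up and 303 (1.82%) were called down. The share of calls that were up was 55.2% without scaling and 80.8% with it. Both fits called 887 genes up and 303 down, so that 1 rise and 418 falls were not called after scaling. Each list is therefore given with its calls in both fits, to be read beside the shares over all genes given here.

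The median control level was 3.12 kFPKM for genes called up, 194 kFPKM for genes called down and 75.2 kFPKM for all genes tested. Of the 888 genes called up, 267 had a control mean under 1 kFPKM and 65 were listed at 0 in all 3 controls. The scale bears on this difference in level, since with 1000 FPKM added a gene with a control mean under 1 kFPKM cannot fall by more than 1. The median log2 difference was 1.51 for genes called up and -1.18 for genes called down. Values of the 2 groups did not overlap for 885 of the 888 rises and 720 of the 721 falls, and for 7592 of all 16682 genes tested.

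**Figure D1:**
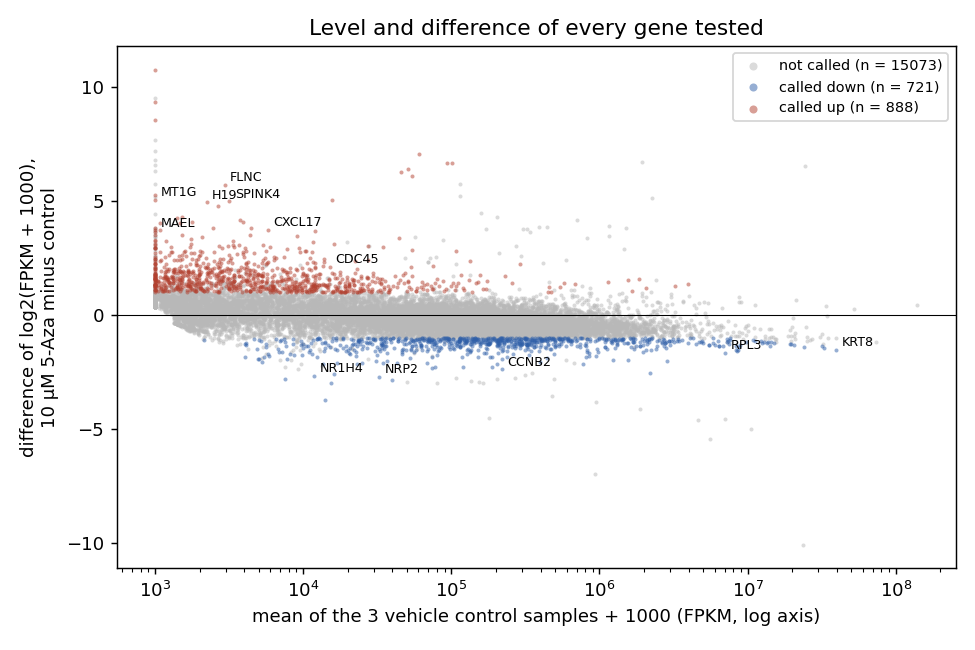
Mean level of the 3 vehicle control samples plus 1000 FPKM (log axis) against the difference of log2(FPKM + 1000), 10 µM minus control, for all 16682 genes tested, with 888 called up in red, 721 called down in blue and 15073 not called in grey. The median control level was 3.12 kFPKM for the red and 194 kFPKM for the blue points, and 18 of the 19 genes beyond 6 in either direction are short RNA genes, for which 1 fragment is worth very many FPKM.

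Single libraries moved these counts. Without control replicate 1, 2 or 3 the genes called up numbered 417, 471 and 646 and those called down 185, 284 and 601. Without 10 µM replicate 1, 2 or 3 they numbered 558, 874 and 486 up and 323, 1490 and 247 down. The 10 µM replicate 2 was the highest treated sample for 636 of the 721 genes called down and for 10542 of all 16682 tested. Of the 165 called genes that were named by a rule, 84 kept the call whichever library was left out.

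The labelled cell type was checked against markers. All 13 markers of colon epithelium were tested, and their summed level was 90802 to 109130.0 kFPKM in the controls and 30199 to 52869 kFPKM at 10 µM. The sum was carried by KRT8 and KRT18, and 6 of the 13 were called down. Markers of other cell types were present in part. Among them PDGFRA, CD3D, KDR, ACTG2, MYOG, SNAP25, S100B and LEP were listed at 0 in all 6 samples, while CD14, of monocytes, was 48.2, 37.3 and 36.1 kFPKM in the controls and 40.0, 50.1 and 45.3 kFPKM at 10 µM. The summed fibroblast list was 23.4 to 32.6 kFPKM in the controls and 46.3 to 53.8 kFPKM at 10 µM, with 1 of 5 tested members (COL1A1) called up. The muscle list was 8.68 to 15.3 and 26.9 to 31.8 kFPKM, with 1 of 4 (DES) called up, and the leukocyte list was 8693 to 8946 and 4738 to 6886 kFPKM, carried by LYZ, with 1 of 7 (ITGAM) called up. The neuron and glia list was 198 to 228 and 72.7 to 118 kFPKM, carried by MBP, which was called down. Endothelial markers summed to 335 to 372 and 232 to 287 kFPKM and those of adipocytes and hepatocytes to 55.3 to 70.8 and 37.6 to 44.9 kFPKM, with no member called. The part of other cells in the results was not tested. In bulk samples fewer cells of a type and less RNA per cell cannot be told apart.

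**Figure D2:**
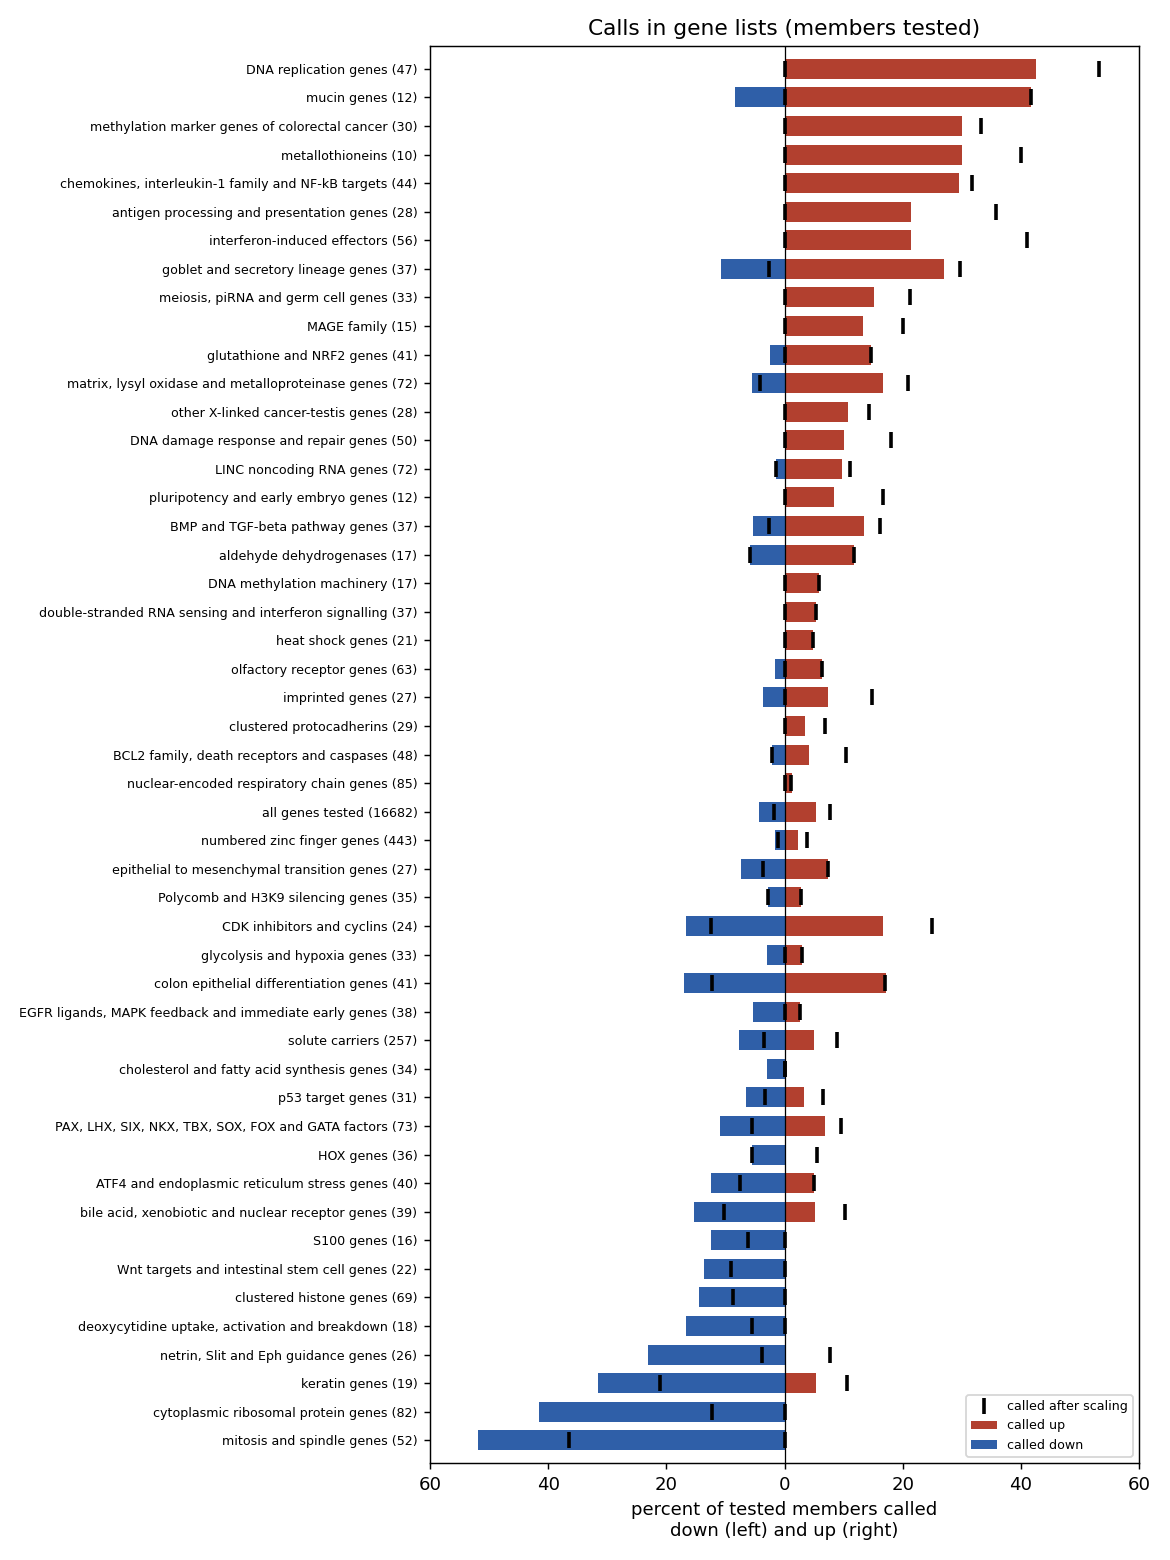
Percent of tested members called up (red, right) and down (blue, left) in each list with at least 10 tested members (number tested in brackets), with black ticks for the percent called after scaling. DNA replication genes reached 42.6% up and mitosis and spindle genes 51.9% down, beside 5.32% up and 4.32% down over all genes tested.

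The 12 genes that rose most were taken, like the 12 that fell most and those named by size within the lists, from called genes whose groups do not overlap, so the separation of their groups is not a finding. FLNC encodes filamin C, an actin crosslinker of muscle, at chr7:128470460-128499328 (hg19). Its level was 2.50, 1.94 and 1.42 kFPKM in the controls and 134, 223 and 121 kFPKM at 10 µM, a log2 difference of 5.73 ± 0.27 (SE), adjusted p = 2.25e-05. Replicate 2 was the highest treated sample. KLK5, a secreted serine protease of skin, was 1.99, 1.76 and 1.25 kFPKM in the controls and 62.3, 76.3 and 78.9 kFPKM at 10 µM (log2 difference 4.79). IL2RG, the common gamma chain of several interleukin receptors, was 4.62, 1.53 and 2.16 kFPKM in the controls and 58.6, 72.4 and 60.4 kFPKM at 10 µM (log2 difference 4.18). The treated samples of both lay close together.

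SPINK4 at chr9:33218363-33248565 encodes a small protease inhibitor of goblet cells and was 0, 6.52 and 0 kFPKM in the controls and 46.5, 54.0 and 92.6 kFPKM at 10 µM, a log2 difference of 5.00 ± 0.71 (SE), adjusted p = 0.00322. Only control replicate 2 was above 0 among the controls, it lay below every treated sample, and the call was lost without 10 µM replicate 3. The SPINK4 level of control replicate 2 was an estimated 3.27 fragments. H19 at chr11:2016396-2025782 is the imprinted noncoding RNA made from the maternal allele. Its level was 0.728, 1.45 and 1.53 kFPKM in the controls and 55.6, 90.4 and 59.5 kFPKM at 10 µM, a log2 difference of 4.94 ± 0.27 (SE), adjusted p = 5.46e-05. IGFBP1, a secreted binder of insulin-like growth factors, was 0, 1.05 and 0.497 kFPKM in the controls and 25.9, 31.4 and 25.3 kFPKM at 10 µM (log2 difference 4.29).

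Metallothionein MT1G, a small metal-binding protein encoded at chr16:56700642-56701977, was listed at 0 in all 3 controls and stood at 19.7, 64.5 and 27.0 kFPKM at 10 µM (adjusted p = 0.000386). LY6D, a surface protein of stratified epithelium, and APOD, a lipid carrier, were listed at 0 in control replicates 1 and 2 and reached 17.3, 25.8 and 32.0 and 28.8, 23.2 and 21.5 kFPKM in the treated samples. PRB1, a salivary proline-rich protein, was 7.05, 0.252 and 1.43 kFPKM in the controls and 59.4, 49.5 and 38.6 kFPKM at 10 µM, and its controls lay far apart. LOC100129520 was 0, 0 and 0.258 kFPKM in the controls and 16.7, 25.9 and 11.2 kFPKM at 10 µM. CDRT4 was below 0.2 FPKM in each control and 46.6, 15.5 and 75.3 kFPKM at 10 µM. Its values in the controls were far below the worth of 1 fragment, so they were products of the estimation and its fold is not given.

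**Figure D3:**
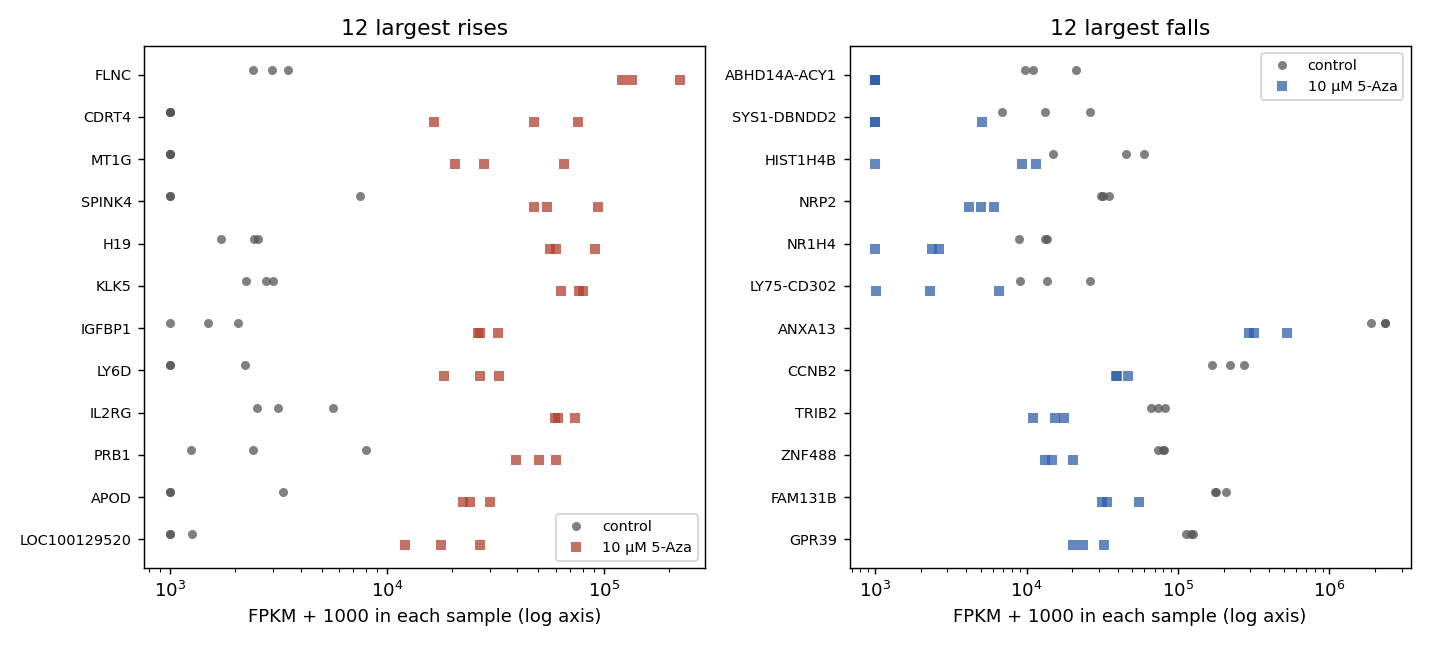
FPKM plus 1000 in each sample (log axis) for the 12 genes with the largest rise (left) and the 12 with the largest fall (right), with grey circles for the 3 control samples and coloured squares for the 3 samples at 10 µM. The genes were chosen for groups that do not overlap, and FLNC at 5.73 heads the rises.

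In the cultures at 5 µM, which share the same controls, some of the same genes had these levels. Not all 12 are listed, and the levels of CDRT4 at 5 µM lay within the range of its 10 µM replicates. The genes that fell are not listed at 5 µM. FLNC was 593, 514 and 732, H19 428, 431 and 438 and SPINK4 164, 155 and 182 kFPKM. IL2RG was 166, 157 and 208, IGFBP1 126, 131 and 146, MT1G 81.6, 95.0 and 115 and KLK5 74.7, 93.1 and 80.03 kFPKM. The 2 concentrations were not tested against each other here.

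Promoters of the largest risers that belong to a list are shown to give their CpG content, since CpG is where the methylation removed by the drug lies. They are the 250 bases before the RefSeq start (GRCh38.p14) in the direction of transcription, with every CpG in capitals. MT1G had no entry. SPINK4 is shown from chr9:33239917-33240166 (plus strand), H19 from chr11:2001267-2001516 (minus), CXCL17, a mucosal chemokine, from chr19:42442947-42443196 (minus), and MAEL, a germ cell gene of the piRNA pathway, from chr1:166975332-166975581 (plus).
SPINK4: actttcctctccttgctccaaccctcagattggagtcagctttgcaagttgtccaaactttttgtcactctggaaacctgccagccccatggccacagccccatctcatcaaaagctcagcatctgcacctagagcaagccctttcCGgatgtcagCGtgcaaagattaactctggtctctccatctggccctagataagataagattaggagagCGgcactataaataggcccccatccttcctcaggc
H19: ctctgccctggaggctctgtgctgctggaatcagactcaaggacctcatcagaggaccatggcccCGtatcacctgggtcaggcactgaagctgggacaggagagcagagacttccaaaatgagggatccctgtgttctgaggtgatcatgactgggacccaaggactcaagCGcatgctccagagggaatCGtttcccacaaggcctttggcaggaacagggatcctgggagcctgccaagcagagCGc
CXCL17: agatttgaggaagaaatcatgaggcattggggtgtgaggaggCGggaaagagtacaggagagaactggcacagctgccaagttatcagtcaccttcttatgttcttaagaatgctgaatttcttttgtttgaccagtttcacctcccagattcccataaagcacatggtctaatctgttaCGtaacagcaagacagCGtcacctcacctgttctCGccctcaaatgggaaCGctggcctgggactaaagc
MAEL: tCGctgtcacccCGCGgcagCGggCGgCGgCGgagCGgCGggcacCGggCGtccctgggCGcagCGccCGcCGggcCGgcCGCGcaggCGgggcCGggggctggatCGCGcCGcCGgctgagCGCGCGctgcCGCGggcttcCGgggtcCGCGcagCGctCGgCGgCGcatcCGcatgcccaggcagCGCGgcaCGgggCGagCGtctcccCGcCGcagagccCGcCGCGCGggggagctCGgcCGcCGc
The first 3 held 3, 4 and 5 CpG and MAEL held 51, so the promoters of genes that rose lay at both ends of the range. Among the 10981 tested genes with a promoter in the table the median was 20 CpG in 250 bases. It was 14 for the 525 genes called up and 20 for the 507 called down. Genes with a control mean under 1 kFPKM had a median of 7 when tested (n = 914) and 9.5 when called up (n = 156). This window is a description of sequence, and methylation was not measured.

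The rule asked for a higher group mean of at least 10 kFPKM, so every fall named by it started from a control mean at or above that level. NRP2 encodes neuropilin 2, a co-receptor for semaphorins and VEGF, and was 33.8, 31.1 and 29.9 kFPKM in the controls and 3.98, 5.09 and 3.16 kFPKM at 10 µM (log2 difference -2.70 ± 0.22 (SE), adjusted p = 0.000447). TRIB2, a pseudokinase, was 65.2, 80.5 and 72.4 kFPKM in the controls and 10.0, 16.8 and 14.5 kFPKM at 10 µM (log2 difference -2.34). GPR39, a zinc-sensing receptor, was 121, 124 and 112 kFPKM in the controls and 19.4, 31.4 and 22.5 kFPKM at 10 µM (log2 difference -2.27). Replicate 2 was the highest treated sample in all 3.

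ANXA13, a gut annexin, was the most abundant of the 12 at 2312, 2326 and 1886 kFPKM in the controls and 292, 526 and 319 kFPKM at 10 µM (log2 difference -2.56 ± 0.24 (SE), adjusted p = 0.000637). FAM131B was 178, 207 and 176 kFPKM in the controls and 33.1, 54.2 and 30.4 kFPKM at 10 µM (log2 difference -2.27). ZNF488, a zinc finger protein, was 78.3, 72.4 and 79.7 kFPKM in the controls and 13.7, 19.3 and 12.3 kFPKM at 10 µM (log2 difference -2.30). The read-through symbols ABHD14A-ACY1, SYS1-DBNDD2 and LY75-CD302 were also among the 12, and in treated replicate 1 each stood far below the worth of 1 fragment. Their reads are shared with the genes they span, so these falls are uncertain. HIST1H4B was 58.2, 14.02 and 44.6 kFPKM in the controls and 8.33, 10.5 and 0 kFPKM at 10 µM, was not called after scaling, and shares sequence with other H4 genes. NR1H4 and CCNB2 complete the 12 and are described with their lists.

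None of the catalytic methyltransferases that the drug traps was called. DNMT1, the maintenance methyltransferase, was 119, 121 and 106 kFPKM in the controls and 133, 198 and 149.9 kFPKM at 10 µM. The groups did not overlap, but the difference was not called (log2 difference 0.46 ± 0.18 (SE), adjusted p = 0.0889). DNMT3A was 96.2, 96.4 and 91.6 kFPKM in the controls and 92.0, 89.8 and 68.9 kFPKM at 10 µM and DNMT3B 2.75, 3.62 and 5.97 kFPKM in the controls and 9.54, 6.87 and 6.27 kFPKM at 10 µM, and neither was called (adjusted p = 0.405 and 0.0926). UHRF1, which brings DNMT1 to newly made DNA, was 18.8, 17.7 and 17.1 kFPKM in the controls and 31.2, 44.5 and 35.8 kFPKM at 10 µM. It was the 1 gene called among 17 tested genes of DNA methylation machinery (5.88%, beside 5.32% called up over all genes) with a log2 difference of 1.00 ± 0.20 (SE), adjusted p = 0.0115, at the edge of the threshold, and it was also the 1 call after scaling. The call was lost without any of control replicates 1, 2 and 3 or 10 µM replicates 2 and 3.

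SPARC, a matrix protein known to be methylated in colon cancer lines, was listed at 0 in all 6 samples and was not tested. The glycolytic enzyme gene GAPDH and the zinc finger gene ZNF311 were not called. GAPDH was 11066, 10653 and 8574 kFPKM in the controls and 4192, 8701 and 6735 kFPKM at 10 µM (log2 difference -0.68 ± 0.34 (SE), adjusted p = 0.167) and ZNF311 15.95, 16.9 and 18.4 kFPKM in the controls and 23.9, 16.2 and 19.7 kFPKM at 10 µM (log2 difference 0.20 ± 0.21 (SE), adjusted p = 0.499). Of the genes that carry, activate or break down deoxycytidine, none of 18 tested rose and 3 fell, and after scaling none rose and 1 fell. SLC28A3, a nucleoside importer, was 103, 130.1 and 179 kFPKM in the controls and 57.0, 49.5 and 48.9 kFPKM at 10 µM (log2 difference -1.36). NT5E, a nucleotidase of the cell surface, and DCTD, dCMP deaminase, had log2 differences of -1.14 and -1.01 and were not called after scaling. Among Polycomb and H3K9 silencing genes, 1 of 35 tested rose and 1 fell, and after scaling 1 rose and 1 fell. HELLS, a chromatin remodeler needed for methylation, was 17.7, 13.8 and 14.8 kFPKM in the controls and 41.8, 51.0 and 55.6 kFPKM at 10 µM (log2 difference 1.61), and BMI1, a Polycomb subunit, was 334, 325 and 323 kFPKM in the controls and 88.3, 183 and 97.5 kFPKM at 10 µM (log2 difference -1.48). Falls among deoxycytidine genes numbered 1 without 10 µM replicate 3. Falls among Polycomb and H3K9 silencing genes numbered 0 without control replicate 1 or 10 µM replicate 3 and 2 without 10 µM replicate 2.

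Cell cycle genes split by phase. DNA replication genes, which build and fire origins in S phase, rose in 20 of 47 tested and fell in none, and 25 rose after scaling. Their median log2 difference was 0.87, beside -0.18 for all genes. Genes of mitosis and the spindle fell in 27 of 52 and rose in none, and 19 fell after scaling, with a median of -1.06. The lists share no gene and were not tested as sets.

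CDC45, which activates the replicative helicase, was 14.7, 18.2 and 9.41 kFPKM in the controls and 55.2, 66.0 and 65.8 kFPKM at 10 µM, a log2 difference of 2.11 ± 0.25 (SE), adjusted p = 0.00178. CLSPN, a checkpoint adaptor at the fork, was 3.23, 3.17 and 3.54 kFPKM in the controls and 13.1, 15.5 and 19.9 kFPKM at 10 µM (log2 difference 1.98). ORC6, an origin recognition subunit, was 34.5, 27.2 and 24.1 kFPKM in the controls and 84.2, 99.2 and 102 kFPKM at 10 µM (log2 difference 1.71). In all 3 the lowest treated sample was replicate 1. ORC1, another such subunit, was 1.81, 6.33 and 4.61 kFPKM in the controls and 10.4, 14.7 and 13.1 kFPKM at 10 µM (log2 difference 1.48), and CHAF1B, which deposits histones behind the fork, was 11.1, 6.35 and 3.63 kFPKM in the controls and 16.6, 24.3 and 23.2 kFPKM at 10 µM (log2 difference 1.57). The MCM helicase genes MCM2, MCM4, MCM5 and MCM10 were called up with log2 differences of 1.17, 1.12, 1.38 and 1.503, as was TYMS, thymidylate synthase, at 1.35. Rises among DNA replication genes numbered 11, 10 and 9 without control replicate 1, 2 or 3 and 14, 14 and 8 without 10 µM replicate 1, 2 or 3.

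CCNB2, a cyclin that drives entry into mitosis, was 271, 220.0 and 166 kFPKM in the controls and 38.6, 45.5 and 37.9 kFPKM at 10 µM, a log2 difference of -2.38 ± 0.20 (SE), adjusted p = 0.000453. KIF4A, a chromosome motor, was 51.3, 40.6 and 34.4 kFPKM in the controls and 6.99, 11.9 and 8.41 kFPKM at 10 µM (log2 difference -2.10), and BUB1, a spindle checkpoint kinase, was 48.4, 31.6 and 26.6 kFPKM in the controls and 8.57, 11.1 and 5.04 kFPKM at 10 µM (log2 difference -1.998). In all 3 genes control replicate 1 was the highest and control replicate 3 the lowest control. KIF14 and DLGAP5, both of the spindle, had log2 differences of -1.82 and -1.79, and PLK1, CENPF and BIRC5 had -1.69, -1.73 and -1.52. MKI67, the proliferation marker, was 109, 82.0 and 59.8 kFPKM in the controls and 29.6, 38.3 and 22.1 kFPKM at 10 µM (log2 difference -1.44 ± 0.27 (SE), adjusted p = 0.00988). FOXM1, the transcription factor of G2 genes, was 85.4, 82.6 and 59.6 kFPKM in the controls and 25.5, 37.8 and 30.1 kFPKM at 10 µM (log2 difference -1.26). Falls among mitosis and spindle genes numbered 7, 13 and 29 without control replicate 1, 2 or 3 and 11, 28 and 9 without 10 µM replicate 1, 2 or 3.

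**Figure D4:**
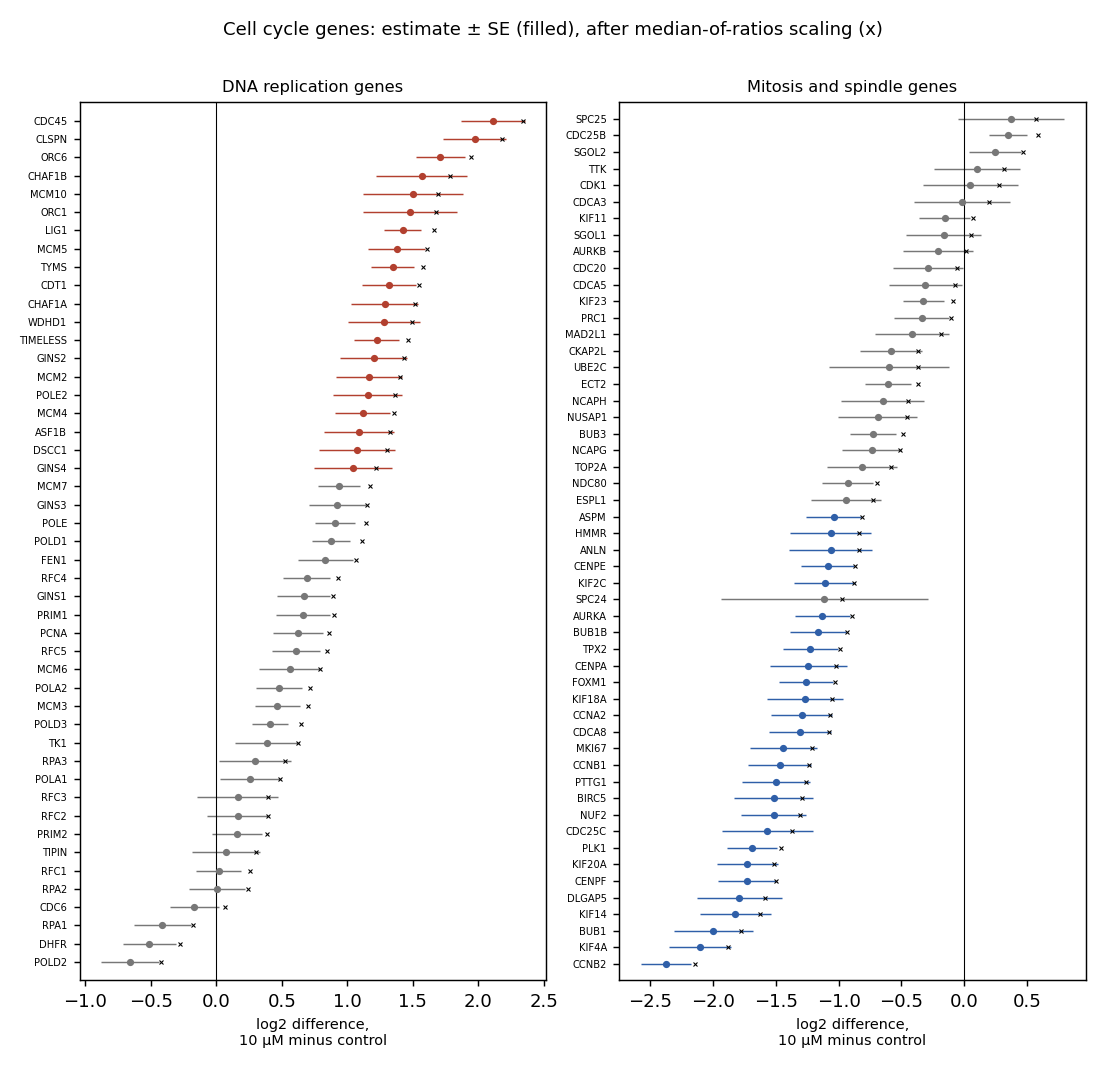
Log2 difference of FPKM + 1000, 10 µM minus control, for each tested DNA replication gene (left, n = 47) and mitosis and spindle gene (right, n = 52), with circles for the estimate, bars for ± SE and crosses for the estimate after scaling; red was called up, blue called down and grey not called. CDC45 is highest at 2.11 on the left and CCNB2 lowest at -2.38 on the right.

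The promoters of these genes were searched, in 250 bases and on both strands, for motifs known from cell cycle control. The E2F site was searched as TTTGGCGC, TTTCGCGC, TTTCCCGC or TTTGCCGC and was found in 4 of 16 replication genes called up, 12 of 39 tested replication genes and 3.99% of all 10981 promoters. The cell cycle homology region of G2 genes was searched as TTTGAA or TTTCGAA and was found in 12 of 23 mitosis genes called down, 23 of 43 tested mitosis genes and 9.47% of all promoters. In both lists the share with a match was no higher in called members than in all tested members. LIG1 (chr19:48170345-48170594, minus strand, E2F site in capitals) and CCNB2 (chr15:59104896-59105145, plus strand, homology region in capitals) had the largest differences among called members with a match and were chosen after the values were seen.
LIG1: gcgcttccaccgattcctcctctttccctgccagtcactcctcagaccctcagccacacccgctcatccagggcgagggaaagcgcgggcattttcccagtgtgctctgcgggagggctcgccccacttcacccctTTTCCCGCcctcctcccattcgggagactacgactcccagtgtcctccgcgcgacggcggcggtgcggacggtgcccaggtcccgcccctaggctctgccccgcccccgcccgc
CCNB2: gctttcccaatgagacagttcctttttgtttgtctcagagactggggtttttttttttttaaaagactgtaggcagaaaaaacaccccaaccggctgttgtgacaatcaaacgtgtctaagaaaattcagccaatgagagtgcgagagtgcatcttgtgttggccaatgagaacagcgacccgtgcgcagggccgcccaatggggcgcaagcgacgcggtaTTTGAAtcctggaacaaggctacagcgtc
LIG1, the ligase that joins Okazaki fragments, had a log2 difference of 1.42, and CCNB2 one of -2.38.

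Regulators of the cycle moved in both directions. Among CDK inhibitors and cyclins 4 of 24 tested rose and 4 fell, and after scaling 6 rose and 3 fell. E2F1, the transcription factor of S phase genes, was 18.1, 26.4 and 21.7 kFPKM in the controls and 82.5, 106 and 90.1 kFPKM at 10 µM (log2 difference 2.03 ± 0.20 (SE), adjusted p = 0.000751). RBL1, a pocket protein that binds E2F, was 7.79, 3.16 and 4.56 kFPKM in the controls and 23.5, 27.7 and 16.6 kFPKM at 10 µM (log2 difference 1.98), and CCNE2, a cyclin of the G1 to S step, had a log2 difference of 1.56. CCNB1 fell to 52.8, 86.2 and 49.5 from 214, 175 and 132 kFPKM. CDKN1A, the p21 inhibitor, was 169, 166 and 155 kFPKM in the controls and 153, 297 and 201 kFPKM at 10 µM and was not called (adjusted p = 0.262). Without control replicate 1, 2 or 3 there were 4, 4 and 4 rises and 1, 2 and 4 falls among CDK inhibitors and cyclins, and without 10 µM replicate 1, 2 or 3 there were 3, 5 and 4 rises and 1, 6 and 1 falls.

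DNA damage response and repair genes gave 5 rises and no fall among 50 tested, and 9 rises and no fall after scaling. FANCA, of the crosslink repair core, was 23.1, 23.5 and 17.9 kFPKM in the controls and 98.6, 83.2 and 63.9 kFPKM at 10 µM (log2 difference 1.87 ± 0.21 (SE), adjusted p = 0.00159). BRCA1 and BRCA2, which act in recombination, had log2 differences of 1.11 and 1.33, XRCC2 of 1.36 and BLM, a helicase, of 1.09. The BLM call was lost in each fit without 1 library. Rises among DNA damage response and repair genes numbered 4, 3 and 3 without control replicate 1, 2 or 3 and 3, 5 and 5 without 10 µM replicate 1, 2 or 3, and falls 1 without 10 µM replicate 2. Among p53 target genes 1 of 31 tested rose and 2 fell, and after scaling 2 rose and 1 fell. TP53INP1, a stress protein, rose by 1.27 on the log2 scale, CCNG1 had a log2 difference of -1.30 and ZMAT3 of -1.02. Of BCL2 family, death receptor and caspase genes, 2 of 48 tested rose and 1 fell, and after scaling 5 rose and 1 fell. Without scaling this was 4.17% up and 2.08% down, beside 5.32% and 4.32% over all genes. TNFRSF10D, a decoy receptor for TRAIL, was 71.7, 89.1 and 89.6 kFPKM in the controls and 38.0, 29.7 and 26.6 kFPKM at 10 µM (log2 difference -1.39), and the inflammatory caspase CASP1 had a log2 difference of 2.20. Falls among p53 target genes numbered 0 without control replicate 1 or 10 µM replicate 3 and 1 without control replicate 2 or 10 µM replicate 1. Rises among BCL2 family, death receptor and caspase genes numbered 0 without control replicate 1 and 1 without control replicate 2 or 10 µM replicates 1, 2 or 3, and falls 4 without 10 µM replicate 2.

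Part of the histone and ribosomal protein genes were called down, fewer of them after scaling. Among clustered histone genes none of 69 tested rose and 10 fell, and after scaling none rose and 6 fell. HIST1H2AC was 1154, 1091 and 1035 kFPKM in the controls and 377, 693 and 263 kFPKM at 10 µM (log2 difference -1.41 ± 0.31 (SE), adjusted p = 0.0162), with treated replicate 2 nearest the controls. HIST1H2AI, HIST1H2BO and HIST1H2BJ had log2 differences of -1.49, -1.37 and -1.35. Copies within this cluster are near-identical, and most of their RNA has no poly(A) tail. The authors purified mRNA for the libraries, so these levels depend on how much of the histone RNA that step kept. Falls among clustered histone genes numbered 1, 3 and 3 without control replicate 1, 2 or 3 and 2, 20 and 1 without 10 µM replicate 1, 2 or 3.

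Cytoplasmic ribosomal protein genes, the protein part of the ribosome, were lower in 80 of 82 tested, beside 10279 of all 16682 genes. Of these 34 were called down, 10 after scaling, and none rose, with a median log2 difference of -1.04. RPL3 was 7924, 7135 and 6144 kFPKM in the controls and 1589, 3019 and 2264 kFPKM at 10 µM, a log2 difference of -1.67 ± 0.29 (SE), adjusted p = 0.00721. RPL12 was 2229.8, 2067 and 1582 kFPKM in the controls and 396, 856 and 705 kFPKM at 10 µM (log2 difference -1.64), and RPS23 2107, 1899 and 1581 kFPKM in the controls and 465, 1028 and 765 kFPKM at 10 µM (log2 difference -1.37). In each replicate 2 was the highest treated sample. Falls among cytoplasmic ribosomal protein genes numbered 0, 2 and 10 without control replicate 1, 2 or 3 and 5, 61 and 0 without 10 µM replicate 1, 2 or 3. The count thus rested on which libraries were used. Reads of these genes can be shared with their processed pseudogenes.

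Few genes of energy metabolism were called. Of nuclear-encoded respiratory chain genes 1 of 85 tested rose and none fell, and after scaling 1 rose and none fell. Without scaling 80 of the 85 were lower, beside 10279 of all 16682 genes. Their median log2 difference was -0.479 without scaling and -0.24 with it. The gene that rose was COX6B2, the testis form of a cytochrome c oxidase subunit, at 3.68, 7.66 and 5.42 kFPKM in the controls and 40.1, 23.3 and 45.7 kFPKM at 10 µM (log2 difference 2.50 ± 0.32 (SE), adjusted p = 0.00234). Glycolysis and hypoxia genes gave 1 rise and 1 fall among 33 tested, and 1 rise and no fall after scaling, with ENO2 at 1.18 and NDRG1 at -1.06 on the log2 scale. Cholesterol and fatty acid synthesis gave no rise and 1 fall among 34 tested, and no rise and no fall after scaling, the call being SCD, a desaturase, at -1.18. Heat shock genes gave 1 rise (4.76%, beside 5.32% over all genes) and no fall among 21 tested, and 1 rise and no fall after scaling, the rise being HSPB8 at 1.79. Falls among nuclear-encoded respiratory chain genes numbered 2 without 10 µM replicate 2. Falls among glycolysis and hypoxia genes numbered 0 without control replicates 1 or 2 or 10 µM replicates 1 or 3 and 2 without 10 µM replicate 2. Falls among cholesterol and fatty acid synthesis genes numbered 0 without control replicates 1, 2 or 3 or 10 µM replicates 1 or 3 and 3 without 10 µM replicate 2. Rises among heat shock genes numbered 0 without control replicate 1 or 10 µM replicate 3.

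Among ATF4 and endoplasmic reticulum stress genes 2 of 40 tested rose and 5 fell, and after scaling 2 rose and 3 fell. ATF5, a stress transcription factor, was 312, 321 and 237 kFPKM in the controls and 1176, 1666 and 1270.2 kFPKM at 10 µM (log2 difference 2.23 ± 0.20 (SE), adjusted p = 0.000546). The serine and one-carbon enzymes PSPH, MTHFD2 and PSAT1, targets of ATF4, had log2 differences of -1.43, -1.32 and -1.12. DDIT4, an inhibitor of mTORC1, was 2831, 2739 and 2364 kFPKM in the controls and 1018, 1250.0 and 1092 kFPKM at 10 µM (log2 difference -1.24). Falls among ATF4 and endoplasmic reticulum stress genes numbered 2, 2 and 5 without control replicate 1, 2 or 3 and 3, 12 and 2 without 10 µM replicate 1, 2 or 3. Rises among ATF4 and endoplasmic reticulum stress genes numbered 1 without control replicate 2.

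Interferon-induced effectors, the antiviral proteins made after interferon or viral RNA is sensed, rose in 12 of 56 tested and in 23 after scaling, and none fell. Their median log2 difference was 0.62. XAF1, a pro-apoptotic protein, was 87.6, 77.9 and 57.6 kFPKM in the controls and 259, 332 and 402 kFPKM at 10 µM, a log2 difference of 2.14 ± 0.22 (SE), adjusted p = 0.00098. HERC5, the ligase for ISG15, was 3.23, 1.84 and 1.62 kFPKM in the controls and 11.6, 28.9 and 12.1 kFPKM at 10 µM (log2 difference 2.43 ± 0.38 (SE), adjusted p = 0.00498), with replicate 2 the highest. RSAD2, the antiviral enzyme viperin, was 54.8, 43.5 and 24.8 kFPKM in the controls and 103, 225 and 97.1 kFPKM at 10 µM (log2 difference 1.72). IFITM1 was 252, 311 and 121 kFPKM in the controls and 443, 1149.7 and 689 kFPKM at 10 µM (log2 difference 1.73), and RTP4 19.1, 5.70 and 4.03 kFPKM in the controls and 19.6, 47.6 and 26.4 kFPKM at 10 µM (log2 difference 1.78), where treated replicate 1 lay just above control replicate 1. MX1, MX2, IFIT3 and IFI44L were called up with log2 differences of 1.01, 1.43, 1.14 and 1.12. Rises among interferon-induced effectors numbered 4, 4 and 4 without control replicate 1, 2 or 3 and 7, 6 and 2 without 10 µM replicate 1, 2 or 3, and falls 1 without 10 µM replicate 2.

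Upstream of these effectors lie sensors of foreign nucleic acid and the interferon signalling proteins. Among dsRNA sensing and interferon signalling genes 2 of 37 tested rose (5.41%) and none fell, beside 5.32% called up over all genes. After scaling 2 rose and none fell, beside 7.63% called up over all genes. DDX58 (RIG-I) was 254, 220.4 and 152 kFPKM in the controls and 189, 298 and 179.6 kFPKM at 10 µM and IFIH1 (MDA5) 294, 268 and 160.5 kFPKM in the controls and 221, 392 and 227 kFPKM at 10 µM, and neither was called (adjusted p = 0.818 and 0.597). ZBP1, a sensor of Z-form nucleic acid, was 6.72, 4.59 and 1.73 kFPKM in the controls and 12.9, 26.6 and 9.64 kFPKM at 10 µM (log2 difference 1.71), and its call was lost in each of the 6 fits without 1 library. IL28B, an interferon lambda gene, had a log2 difference of 1.61. Rises among sensing and signalling genes numbered 0 without control replicates 1, 2 or 3 or 10 µM replicate 3 and 1 without 10 µM replicates 1 or 2, and falls 2 without 10 µM replicate 2.

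The interferon-stimulated response element was searched as GAAANNGAAA on both strands of the same 250 bases. It was found in 6 of 9 effectors called up, 25 of 45 tested effectors and 2.47% of all 10981 promoters. The HERC5 promoter (chr4:88456869-88457118, plus strand) is shown, with matches in capitals, as the called effector with the largest difference and a match, chosen after the values were seen.
HERC5: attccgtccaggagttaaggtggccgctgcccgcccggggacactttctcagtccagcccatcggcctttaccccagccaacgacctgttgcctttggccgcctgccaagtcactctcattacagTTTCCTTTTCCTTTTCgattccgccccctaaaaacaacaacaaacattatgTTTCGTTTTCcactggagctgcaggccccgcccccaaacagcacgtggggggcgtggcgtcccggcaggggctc
Overlapping and adjacent matches run together in it, and 3 were counted.

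Antigen processing and presentation genes gave 6 rises and no fall among 28 tested, and 10 rises and no fall after scaling. NLRC5, the activator of MHC class I genes, was 18.3, 15.9 and 10.1 kFPKM in the controls and 54.8, 69.4 and 41.7 kFPKM at 10 µM (log2 difference 1.85 ± 0.27 (SE), adjusted p = 0.00366). HLA-F was 87.1, 84.8 and 66.7 kFPKM in the controls and 172, 317 and 254 kFPKM at 10 µM (log2 difference 1.59), HLA-B 304, 268 and 199 kFPKM in the controls and 458, 984 and 683 kFPKM at 10 µM (log2 difference 1.41) and HLA-DOB 1.97, 3.05 and 4.31 kFPKM in the controls and 12.4, 21.0 and 22.8 kFPKM at 10 µM (log2 difference 2.26). B2M, the light chain of MHC class I, was 12202, 11138 and 10382 kFPKM in the controls and 11833, 19769 and 15239 kFPKM at 10 µM and was not called (adjusted p = 0.358). HLA genes are alike in sequence, so counts may be split between them. Rises among antigen processing and presentation genes numbered 3, 4 and 4 without control replicate 1, 2 or 3 and 5, 5 and 5 without 10 µM replicate 1, 2 or 3.

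Chemokines, the interleukin-1 family and NF-kB targets rose in 13 of 44 tested and in 14 after scaling, and none fell. CXCL17 was 3.58, 4.74 and 6.14 kFPKM in the controls and 66.6, 103 and 63.8 kFPKM at 10 µM, a log2 difference of 3.75 ± 0.26 (SE), adjusted p = 0.000305. CCL20, which draws CCR6-bearing lymphocytes to mucosa, was 6.09, 8.07 and 6.25 kFPKM in the controls and 49.7, 84.8 and 44.2 kFPKM at 10 µM (log2 difference 2.91). IL32 was 6.25, 3.78 and 3.84 kFPKM in the controls and 24.9, 45.4 and 47.4 kFPKM at 10 µM (log2 difference 2.81). The treated samples of CXCL17 and CCL20 were highest in replicate 2. IL1B, the proinflammatory cytokine, was 1.19, 1.57 and 4.17 kFPKM in the controls and 10.7, 16.3 and 15.0 kFPKM at 10 µM and the neutrophil chemokine CXCL1 16.8, 6.34 and 9.71 kFPKM in the controls and 39.5, 60.8 and 45.5 kFPKM at 10 µM, and CXCL2, CXCL3 and IL8 had log2 differences of 1.33, 1.81 and 1.75. TNFAIP3, the feedback inhibitor of NF-kB, had a log2 difference of 1.09. Rises among chemokine and NF-kB genes numbered 7, 10 and 10 without control replicate 1, 2 or 3 and 13, 13 and 7 without 10 µM replicate 1, 2 or 3, and falls 1 without 10 µM replicate 2.

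**Figure D5:**
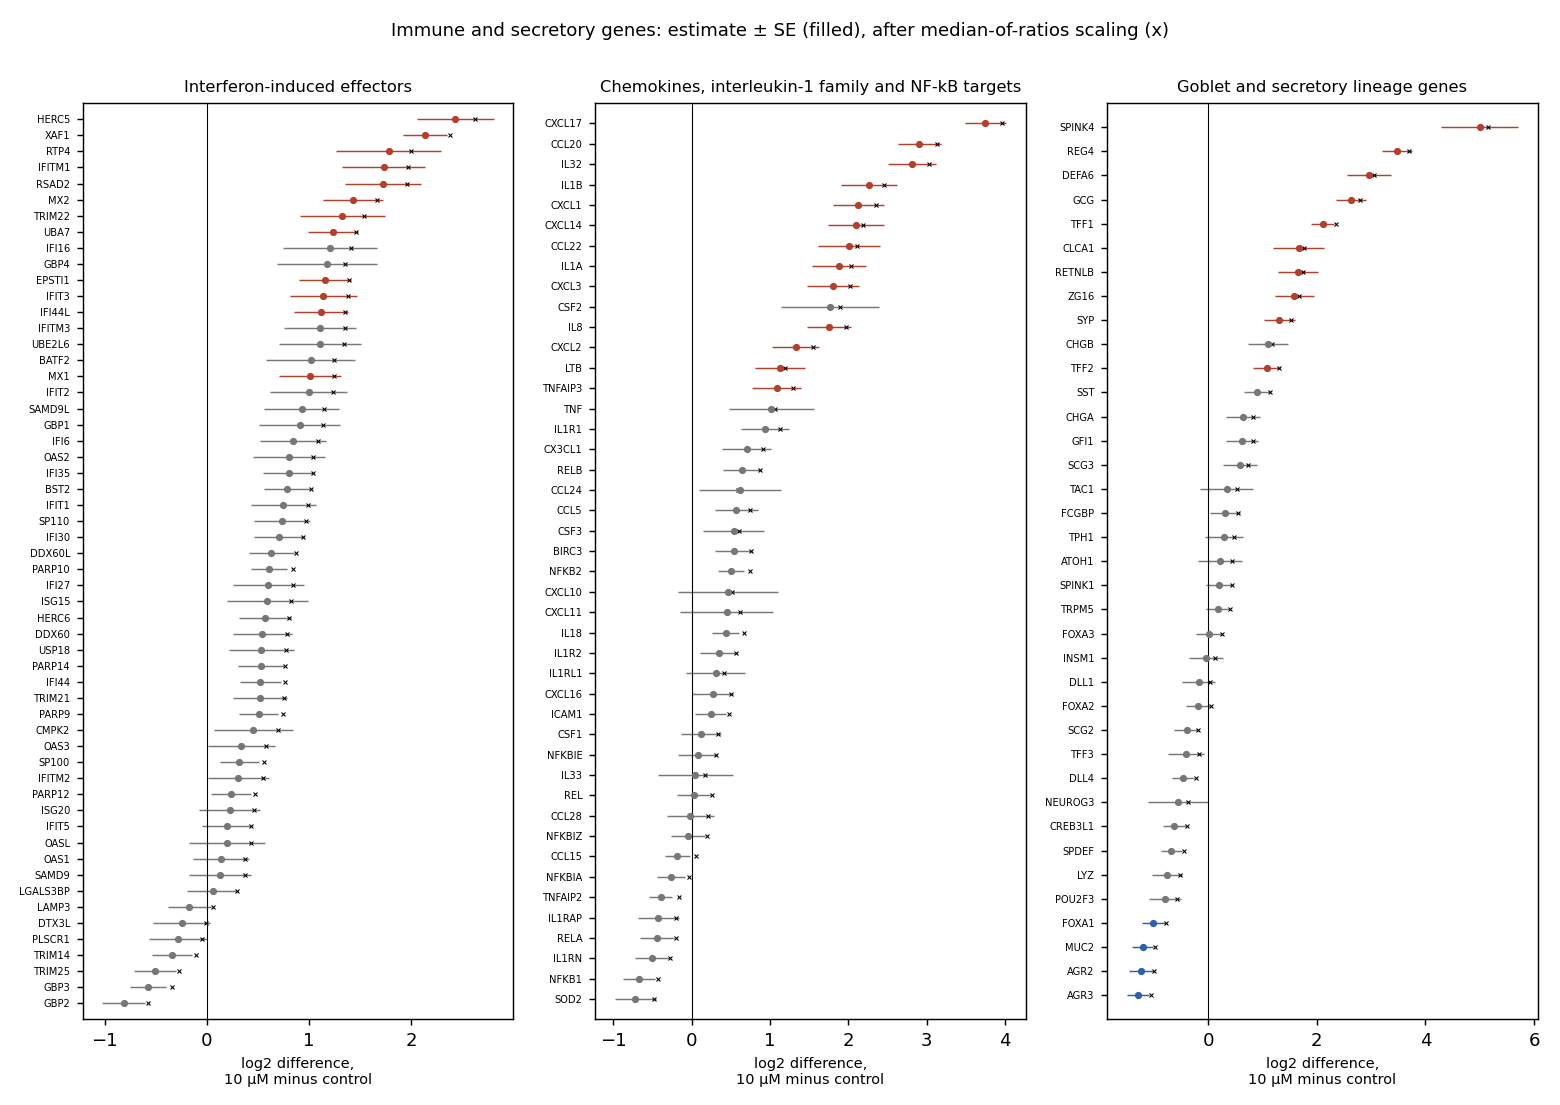
Log2 difference of FPKM + 1000, 10 µM minus control, for each tested interferon-induced effector (left, n = 56), chemokine, interleukin-1 or NF-kB gene (middle, n = 44) and goblet or secretory gene (right, n = 37), with circles for the estimate, bars for ± SE and crosses for the estimate after scaling; red was called up, blue called down and grey not called. HERC5, CXCL17 and SPINK4 lead the panels at 2.43, 3.75 and 5.00.

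Gut lineage genes moved in both directions. Among goblet and secretory lineage genes 10 of 37 tested rose and 4 fell, and after scaling 11 rose and 1 fell. REG4, a secreted lectin of secretory cells, was 10.8, 5.09 and 8.30 kFPKM in the controls and 82.3, 121 and 89.7 kFPKM at 10 µM, a log2 difference of 3.48 ± 0.27 (SE), adjusted p = 0.000369. TFF1, a trefoil peptide, was 65.7, 50.8 and 41.0 kFPKM in the controls and 198, 277 and 211 kFPKM at 10 µM (log2 difference 2.11), and GCG, the glucagon gene of L cells, was 1.42, 0.940 and 0.665 kFPKM in the controls and 11.7, 13.4 and 9.17 kFPKM at 10 µM (log2 difference 2.63). Replicate 2 was the highest treated sample in all 3. The Paneth defensin DEFA6 and the goblet products CLCA1, RETNLB and ZG16 had log2 differences of 2.96, 1.66, 1.65 and 1.59. The genes of this list that fell were MUC2, the main secreted gut mucin, at 127, 139 and 108 kFPKM in the controls and 54.0, 65.2 and 42.6 kFPKM at 10 µM (log2 difference -1.21 ± 0.20 (SE), adjusted p = 0.00571), AGR2, which folds mucins, at -1.23, AGR3 at -1.29, and FOXA1 at -1.01. Only AGR3 of these was also called after scaling. Without control replicate 1, 2 or 3 there were 6, 5 and 6 rises and 0, 2 and 4 falls among goblet and secretory lineage genes, and without 10 µM replicate 1, 2 or 3 there were 6, 9 and 7 rises and 3, 4 and 1 falls.

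Among mucin genes 5 of 12 tested rose and 1 fell, and after scaling 5 rose and none fell. The rises were in membrane mucins, namely MUC1 at 5.25, 6.32 and 9.23 kFPKM in the controls and 29.7, 15.1 and 30.8 kFPKM at 10 µM (log2 difference 1.69) and MUC4, MUC15, MUC16 and MUC21 at 1.43, 2.01, 1.47 and 1.88 on the log2 scale. Rises among mucin genes numbered 1, 2 and 5 without control replicate 1, 2 or 3 and 4, 5 and 2 without 10 µM replicate 1, 2 or 3. Falls among mucin genes numbered 0 without control replicate 1 and 2 without 10 µM replicate 2.

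Colon epithelial differentiation genes gave 7 rises and 7 falls among 41 tested, and 7 rises and 5 falls after scaling. ANPEP, a brush border peptidase, was 1.77, 0.294 and 1.14 kFPKM in the controls and 22.7, 20.7 and 18.0 kFPKM at 10 µM, a log2 difference of 3.44 ± 0.32 (SE), adjusted p = 0.000635. GUCA2A, guanylin, was 2.11, 8.38 and 8.89 kFPKM in the controls and 34.9, 49.4 and 31.0 kFPKM at 10 µM (log2 difference 2.55), CDHR2, a brush border cadherin, 11.6, 11.2 and 10.1 kFPKM in the controls and 56.1, 55.3 and 38.2 kFPKM at 10 µM (log2 difference 2.07) and MYO1A, the brush border myosin, 3.36, 3.56 and 4.09 kFPKM in the controls and 13.7, 19.7 and 13.9 kFPKM at 10 µM (log2 difference 1.83). The control levels of GUCA2A, a short gene, were an estimated 0.616, 3.70 and 5.55 fragments. The transcription factors CDX2, HNF4G and HNF4A were among the 7 falls. CDX2 was 55.6, 63.3 and 52.4 kFPKM in the controls and 20.2, 27.7 and 18.7 kFPKM at 10 µM (log2 difference -1.34 ± 0.20 (SE), adjusted p = 0.00418), HNF4G 168, 145 and 140.0 kFPKM in the controls and 36.2, 60.6 and 32.6 kFPKM at 10 µM (log2 difference -1.83) and HNF4A had a log2 difference of -1.43. VIL1, villin, was 718, 807 and 839 kFPKM in the controls and 547, 647 and 523 kFPKM at 10 µM and was not called (adjusted p = 0.0657). Without control replicate 1, 2 or 3 there were 5, 5 and 5 rises and 3, 5 and 6 falls among colon epithelial differentiation genes, and without 10 µM replicate 1, 2 or 3 there were 4, 5 and 6 rises and 4, 9 and 4 falls.

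Among keratin genes 1 of 19 tested rose and 6 fell, and after scaling 2 rose and 4 fell. KRT8 was 40930.4, 42003 and 35211 kFPKM in the controls and 9932, 18259.6 and 13732 kFPKM at 10 µM, a log2 difference of -1.53 ± 0.43 (SE), adjusted p = 0.0358, and its partner KRT18 was 32779, 36486 and 29680.1 kFPKM in the controls and 8642, 15607 and 12727 kFPKM at 10 µM (log2 difference -1.46). KRT19 and KRT20 had log2 differences of -1.54 and -1.31. All 4 remained called after scaling. KRT81, a hair keratin, was 7.83, 8.98 and 16.3 kFPKM in the controls and 34.1, 75.4 and 64.5 kFPKM at 10 µM (log2 difference 2.28). KRT8 and KRT18 have many processed pseudogenes, so their values are uncertain. Falls among keratin genes numbered 0, 0 and 3 without control replicate 1, 2 or 3 and 2, 6 and 0 without 10 µM replicate 1, 2 or 3. Rises among keratin genes numbered 0 without control replicate 1 or 10 µM replicate 3.

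Among Wnt targets and intestinal stem cell genes none of 22 tested rose and 3 fell, and after scaling none rose and 2 fell. EPHB2, the crypt ephrin receptor, was 12.9, 15.5 and 12.7 kFPKM in the controls and 3.74, 5.47 and 5.87 kFPKM at 10 µM (log2 difference -1.30), and LGR5, the stem cell marker, had a log2 difference of -1.49. Netrin, Slit and Eph guidance genes gave no rise and 6 falls among 26 tested, and 2 rises and 1 fall after scaling. EFNB1 was 1192, 1103 and 1010.4 kFPKM in the controls and 438, 662 and 478 kFPKM at 10 µM (log2 difference -1.09), and NEO1, EFNA2 and EPHB4 had log2 differences of -1.03, -1.05 and -1.06. In that list only EPHB2 was called after scaling among those that fell. EPHB2 and EPHB4 belong to both lists, so their falls are counted in each. Falls among netrin, Slit and Eph guidance genes numbered 1, 1 and 5 without control replicate 1, 2 or 3 and 1, 6 and 4 without 10 µM replicate 1, 2 or 3. Falls among Wnt targets and intestinal stem cell genes numbered 0, 1 and 3 without control replicate 1, 2 or 3 and 1, 4 and 3 without 10 µM replicate 1, 2 or 3.

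Genes known for promoter methylation rose in part. The colorectal methylation markers gave 9 rises and no fall among 30 tested, and 10 rises and no fall after scaling. Of the 62 members 12 were listed at 0 in all 6 samples. Any tested member with a control mean under 1 kFPKM could not be called down on this scale. DKK1, a secreted Wnt antagonist, was 23.5, 17.1 and 16.2 kFPKM in the controls and 57.7, 83.2 and 47.6 kFPKM at 10 µM, a log2 difference of 1.66 ± 0.25 (SE), adjusted p = 0.00406. SOCS1, an inhibitor of cytokine signalling, was 9.13, 3.02 and 7.12 kFPKM in the controls and 11.97, 19.7 and 13.9 kFPKM at 10 µM (log2 difference 1.197). The SOCS1 call was lost in each fit without 1 library. MAL, UCHL1, TIMP3, NGFR, VIM and FRZB had log2 differences of 3.06, 2.73, 1.93, 1.38, 1.23 and 1.05, from control means of at most 3.38 kFPKM. Rises among methylation marker genes of colorectal cancer numbered 4, 4 and 5 without control replicate 1, 2 or 3 and 6, 7 and 5 without 10 µM replicate 1, 2 or 3. Secreted Wnt antagonists, which share DKK1 and FRZB with that list, gave 2 rises and no fall among 6 tested, and 2 rises and no fall after scaling. Rises among secreted Wnt antagonists numbered 1 without control replicates 1, 2 or 3 or 10 µM replicates 1, 2 or 3.

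Meiosis, piRNA and germ cell genes gave 5 rises and no fall among 33 tested, and 7 rises and no fall after scaling. In this list and the MAGE and cancer-testis lists, members at 0 in the controls were tested only through their 10 µM values. Such members could not be called down, so for them the absence of falls was set in advance. Of all tested genes with a promoter entry and a control mean under 1 kFPKM, 156 of 914 were called up. MAEL was listed at 0 in the controls and at 7.11, 15.0 and 16.8 kFPKM at 10 µM (adjusted p = 0.000637), while HSPA2, PSMC3IP and MSH5 had log2 differences of 1.16, 1.15 and 1.01. The HSPA2 call was lost in each fit without 1 library. TEX19, a placental and germline gene, had a log2 difference of 1.54. Rises among meiosis, piRNA and germ cell genes numbered 2, 2 and 1 without control replicate 1, 2 or 3 and 2, 4 and 4 without 10 µM replicate 1, 2 or 3. Of 35 MAGE family genes 13 were listed at 0 in all 6 samples and 15 were tested, of which 2 rose (MAGEB2 1.70, MAGEC2 1.25) and none fell, with 3 rising after scaling. Of 100 other X-linked cancer-testis genes 40 were listed at 0 in all 6 and 28 were tested, of which 3 rose (PAGE2B 3.12, PAGE1 2.53, GAGE12F 1.91), and 4 after scaling. PAGE and GAGE genes are near-identical copies. Rises among MAGE genes numbered 0 without control replicates 1 or 2 and 1 without control replicate 3 or 10 µM replicate 1, and falls 1 without 10 µM replicate 1. Rises among other X-linked cancer-testis genes numbered 1 without control replicate 1.

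SOX2 was the 1 rise among 12 tested pluripotency and early embryo genes (log2 difference 2.43), with 2 rises after scaling. Imprinted genes gave 2 rises and 1 fall among 27 tested, and 4 rises and no fall after scaling. Beside H19, PEG10, a retrotransposon-derived gene of the placenta, was 0, 0.317 and 0.224 kFPKM in the controls and 8.57, 18.6 and 6.19 kFPKM at 10 µM (log2 difference 3.24 ± 0.39 (SE), adjusted p = 0.00198), and NAP1L5 was 20.5, 14.2 and 18.0 kFPKM in the controls and 5.16, 8.92 and 11.6 kFPKM at 10 µM, a fall that was not called after scaling. Falls among imprinted genes numbered 0 without control replicates 1, 2 or 3 or 10 µM replicates 1, 2 or 3.

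Metallothioneins were higher in all 10 tested, beside 6403 of all 16682 genes, and 3 rose, 4 after scaling. A member at 0 in the controls, such as MT1G, was tested only through its 10 µM values and could only be higher. The count of 10 is therefore partly set by the filter. MT1F was 3.35, 4.44 and 1.57 kFPKM in the controls and 18.5, 31.7 and 31.5 kFPKM at 10 µM (log2 difference 2.80 ± 0.34 (SE), adjusted p = 0.00196), and MT1H had a log2 difference of 3.24. The count of 3 was the same in each fit without 1 library. These genes are near-identical copies, so reads may be split between them. Glutathione and NRF2 genes gave 6 rises and 1 fall among 41 tested, and 6 rises and no fall after scaling. GSTA4, a glutathione transferase, was 38.5, 38.1 and 26.9 kFPKM in the controls and 86.7, 95.6 and 112 kFPKM at 10 µM (log2 difference 1.49), the gamma-glutamyl transferase genes GGT6 and GGT7 had log2 differences of 1.44 and 1.44, and MGST3 had -1.02. Rises among glutathione and NRF2 genes numbered 4, 3 and 5 without control replicate 1, 2 or 3 and 6, 4 and 4 without 10 µM replicate 1, 2 or 3. Falls among glutathione and NRF2 genes numbered 0 without control replicate 1 or 10 µM replicates 1 or 3 and 3 without 10 µM replicate 2. Of aldehyde dehydrogenases 2 of 17 tested rose and 1 fell, and after scaling 2 rose and 1 fell, with ALDH3B2 at 2.34, ALDH1L2 at 2.05 and ALDH3A1 at -1.33 on the log2 scale. Falls among aldehyde dehydrogenases numbered 0 without control replicates 1, 2 or 3 or 10 µM replicates 1 or 3 and 2 without 10 µM replicate 2.

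Bile acid, xenobiotic and nuclear receptor genes gave 2 rises and 6 falls among 39 tested, and 4 rises and 4 falls after scaling. NR1H4, the bile acid receptor FXR, was 7.89, 12.3 and 12.6 kFPKM in the controls and 0, 1.39 and 1.64 kFPKM at 10 µM, a log2 difference of -2.66 ± 0.41 (SE), adjusted p = 0.00458. FGF19, its target hormone in the ileum, was 835, 865 and 746 kFPKM in the controls and 182, 261 and 250.4 kFPKM at 10 µM (log2 difference -1.83 ± 0.18 (SE), adjusted p = 0.000849). NR5A2 was 43.0, 52.8 and 49.1 kFPKM in the controls and 16.9, 16.7 and 14.4 kFPKM at 10 µM (log2 difference -1.54) and CYP24A1, which degrades vitamin D, had a log2 difference of -1.47. OSTBETA, a basolateral bile acid exporter and also an FXR target, was 107, 95.9 and 99.8 kFPKM in the controls and 243, 288 and 272 kFPKM at 10 µM and rose (log2 difference 1.40). Falls among bile acid and nuclear receptor genes numbered 3, 5 and 6 without control replicate 1, 2 or 3 and 4, 11 and 5 without 10 µM replicate 1, 2 or 3. Rises among bile acid and nuclear receptor genes numbered 1 without control replicates 1, 2 or 3 or 10 µM replicates 1 or 3.

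Solute carriers gave 13 rises (5.06%) and 20 falls (7.78%) among 257 tested, beside 5.32% and 4.32% over all genes. After scaling there were 23 rises and 9 falls, beside 7.63% up and 1.82% down over all genes. SLC15A3, a peptide transporter of endosomes, was 9.67, 6.90 and 5.02 kFPKM in the controls and 20.2, 50.5 and 33.1 kFPKM at 10 µM (log2 difference 2.07), and SLC4A11 45.1, 51.7 and 61.8 kFPKM in the controls and 167, 168 and 196 kFPKM at 10 µM (log2 difference 1.73). SLC40A1, the iron exporter ferroportin, was 813, 898 and 839 kFPKM in the controls and 227, 372 and 219 kFPKM at 10 µM (log2 difference -1.68 ± 0.22 (SE), adjusted p = 0.00237), and SLC5A3, which imports myo-inositol, and SLC7A2, which imports cationic amino acids, had log2 differences of -1.73 and -1.71. Without control replicate 1, 2 or 3 there were 4, 7 and 9 rises and 10, 11 and 15 falls among solute carriers, and without 10 µM replicate 1, 2 or 3 there were 7, 15 and 8 rises and 12, 24 and 10 falls.

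Matrix, lysyl oxidase and metalloproteinase genes gave 12 rises and 4 falls among 72 tested, and 15 rises and 3 falls after scaling. COL20A1 was 1.93, 2.30 and 1.26 kFPKM in the controls and 17.4, 19.5 and 24.7 kFPKM at 10 µM (log2 difference 2.93 ± 0.26 (SE), adjusted p = 0.000546) and COL1A1 4.94, 5.83 and 8.93 kFPKM in the controls and 22.7, 17.9 and 24.1 kFPKM at 10 µM (log2 difference 1.60). MMP13, a collagenase, and ADAMTS17 had log2 differences of 2.03 and 1.75, and the MMP13 call was lost in each fit without 1 library. LOXL4, a lysyl oxidase, was 734, 909 and 1182 kFPKM in the controls and 228, 289.7 and 286 kFPKM at 10 µM (log2 difference -1.79). Without control replicate 1, 2 or 3 there were 7, 8 and 12 rises and 1, 3 and 5 falls among matrix genes, and without 10 µM replicate 1, 2 or 3 there were 9, 13 and 9 rises and 3, 7 and 3 falls.

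Among BMP and TGF-beta pathway genes 5 of 37 tested rose and 2 fell, and after scaling 6 rose and 1 fell. INHBE, which encodes an inhibin subunit, was 82.6, 92.2 and 69.5 kFPKM in the controls and 199, 236 and 162 kFPKM at 10 µM (log2 difference 1.27 ± 0.19 (SE), adjusted p = 0.00386), and TGFB3, a ligand, had a log2 difference of 1.17. ID1, a BMP target, was 1513, 1481 and 1365 kFPKM in the controls and 562, 617 and 675 kFPKM at 10 µM (log2 difference -1.24), a fall that was not called after scaling, and LTBP1 had a log2 difference of -1.75. Epithelial to mesenchymal transition genes gave 2 rises and 2 falls among 27 tested, and 2 rises and 1 fall after scaling. Those shares were 7.41% up and 7.41% down, beside 5.32% and 4.32% over all genes, and 23 of the 27 were not called. VIM and FN1, both mesenchymal, had log2 differences of 1.23 and 1.05, and the epithelial genes ITGB6 and ELF3 had -1.67 and -1.22. Rises among BMP and TGF-beta genes numbered 3 without control replicate 1, and falls 1 without control replicate 1 or 10 µM replicates 1 or 3 and 5 without 10 µM replicate 2. Rises among epithelial to mesenchymal transition genes numbered 0 without control replicates 1, 2 or 3 or 10 µM replicate 1 and 1 without 10 µM replicate 3, and falls 1 without control replicate 1 and 5 without 10 µM replicate 2.

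EGFR ligands, MAPK feedback and immediate early genes gave 1 rise and 2 falls among 38 tested, and 1 rise and no fall after scaling. EGFR was 256, 234 and 227 kFPKM in the controls and 112, 158 and 69.2 kFPKM at 10 µM (log2 difference -1.15), PHLDA1 had a log2 difference of -1.08, and neither was called after scaling, while EGF itself had 1.51. S100 genes gave no rise and 2 falls among 16 tested, and no rise and 1 fall after scaling, the falls being S100A16 at -1.32 and S100A10 at -1.04 on the log2 scale. Of RASSF genes 1 of 9 tested rose and none fell, and after scaling 2 rose and none fell, the call being RASSF8 at 1.19. Falls among EGFR and MAPK genes numbered 0 without control replicates 1 or 2 or 10 µM replicates 1 or 3 and 1 without control replicate 3 and 7 without 10 µM replicate 2. Falls among S100 genes numbered 0 without control replicates 1 or 2 or 10 µM replicate 3 and 1 without control replicate 3 or 10 µM replicate 1 and 4 without 10 µM replicate 2. Rises among RASSF genes numbered 0 without control replicates 1, 2 or 3 or 10 µM replicates 1, 2 or 3, and falls 1 without 10 µM replicate 2.

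Transcription factors were described by family. Among PAX, LHX, sine oculis, NKX, TBX, SOX, FOX and GATA factors 5 of 73 tested rose and 8 fell, and after scaling 7 rose and 4 fell. Without scaling this was 6.85% up and 11% down, beside 5.32% and 4.32% over all genes. FOXJ1, the factor of motile cilia, was 10.7, 6.03 and 7.503 kFPKM in the controls and 26.7, 43.5 and 34.0 kFPKM at 10 µM (log2 difference 1.98 ± 0.27 (SE), adjusted p = 0.00272) and FOXL1 25.6, 23.7 and 16.6 kFPKM in the controls and 3.83, 5.36 and 3.16 kFPKM at 10 µM (log2 difference -2.17 ± 0.27 (SE), adjusted p = 0.00206), while TBX6 and FOXD2 had log2 differences of 1.34 and -1.44. HOX genes gave no rise and 2 falls (5.56%, beside 4.32% over all genes) among 36 tested, and 2 rises and 2 falls after scaling. The falls were HOXC4 at 103, 114 and 123 kFPKM in the controls and 41.3, 45.3 and 44.7 kFPKM at 10 µM and HOXA13 at 139, 146 and 113 kFPKM in the controls and 44.6, 64.5 and 28.8 kFPKM at 10 µM. Numbered zinc finger genes, mostly repressors, gave 10 rises and 7 falls among 443 tested, and 17 rises and 5 falls after scaling, led by ZNF117 at 2.14, ZNF300 at 1.93, ZNF577 at 1.74 and ZNF792 at -1.59 beside ZNF488 above. Rises among these developmental factors numbered 3 without control replicate 1 or 10 µM replicate 3, and falls 2 without control replicate 1 and 4 without 10 µM replicate 3. Falls among HOX genes numbered 1 without control replicate 1 or 10 µM replicate 1 and 4 without 10 µM replicate 2. Rises among numbered zinc finger genes numbered 3 without control replicates 1 or 2 and 4 without 10 µM replicates 1 or 3, and falls 2 without control replicate 1 and 4 without control replicate 2 and 17 without 10 µM replicate 2.

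Clustered protocadherins gave 1 rise and no fall among 29 tested, and 2 rises and no fall after scaling, the call being PCDHB15 at 1.64. LINC noncoding RNA genes gave 7 rises and 1 fall among 72 tested, and 8 rises and 1 fall after scaling, with LINC00483 at 2.83, 3.74 and 4.41 kFPKM in the controls and 18.5, 14.1 and 11.1 kFPKM at 10 µM (log2 difference 1.73) and LINC00310 at 36.8, 46.4 and 82.7 kFPKM in the controls and 18.4, 15.3 and 15.2 kFPKM at 10 µM (log2 difference -1.63). Of 390 olfactory receptor genes 282 were listed at 0 in all 6 samples, and of 63 tested 4 rose and 1 fell, with 4 rises and no fall after scaling. Rises among clustered protocadherins numbered 0 without control replicate 2 or 10 µM replicate 1. Rises among LINC noncoding RNA genes numbered 3 without control replicates 1, 2 or 3 or 10 µM replicate 3, and falls 3 without control replicate 3 or 10 µM replicate 2. Rises among olfactory receptor genes numbered 0 without control replicates 1 or 2 or 10 µM replicates 1 or 3 and 2 without control replicate 3, and falls 0 without control replicates 1, 2 or 3 or 10 µM replicates 1 or 3 and 2 without 10 µM replicate 2.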

How the data were processed

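RNA was taken from separate HT-29 cultures, mRNA was purified from it, and paired-end 100 bp libraries were sequenced. The authors trimmed the reads with FASTX and aligned them to hg19 with TopHat at default settings for paired reads. They deposited Cufflinks FPKM values (fragments per kilobase and library size) for each sample without pooling replicates. The annotation version and the Cufflinks options are not given in the sources used here. The deposited values were far above the usual scale of FPKM. Depth was estimated, with the annotated exon lengths, from the steps between low values, and is approximate. At microRNA genes of 110 nt these values were whole multiples of 1 unit per library, within a tolerance of 1%.

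Entries that repeat a symbol were summed. Symbols were matched to GENCODE v44 in hg19 coordinates. Levels are printed in kFPKM (1000 FPKM). Genes with at least 1000 FPKM in 1 of the 6 samples were tested with limma 3.58.1 (R 4.3.3) on log2(FPKM + 1000), the 3 cultures at 10 µM against the 3 at 0 µM, with Benjamini-Hochberg adjustment over all 16682 genes. All adjusted p-values in the text are from this fit. A call needed an adjusted p no higher than 0.05 with a log2 difference beyond 1 in either direction. The labels call the replicates biological. Replicate numbers were not used to pair samples.

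The text names called genes whose groups do not overlap and whose higher group mean is at least 10000 FPKM, namely the 12 that rose most, the 12 that fell most (short RNA symbols left out) and up to 5 per list, by size of difference, for 50 gene lists, together with a short group of genes of interest, called or not. A few genes that meet this rule are not reported here. Other named genes were chosen after their values were seen. The members and lists were chosen with earlier results of these data known. Promoters came from the RefSeq table of GRCh38.p14, where 10981 tested genes had an entry. The fit was tested on simulated data that held no differences in scale between samples and no steps at low values, so it does not bear on either. The alternatives were other pseudocounts, filters and scalings, all 9 samples in 1 fit, a replicate block, other thresholds, the largest entry of a repeated symbol, and each library left out.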

Additional observations from a re-analysis of the deposited data

How the results depend on the processing

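The 888 genes called up and 721 called down moved by over 1.5 times under these settings. Without a filter on low values 450 rose and 269 fell. After median-of-ratios scaling 303 fell, and scaling to the same FPKM total gave 1531 rises and 175 falls, so the balance of rises and falls rests on the scaling. Without a fold threshold 2519 fell. With 1 library left out the rises ranged from 417 to 874 and the falls from 185 to 1490. Pseudocounts of 1 and 100, a minimum of 10, a minimum in all 3 replicates, all 9 samples, a test against a fold of 1.2 and the largest entry of a symbol gave 622 to 987 rises and 526 to 761 falls. With the replicate number as a replicate block 993 rose and 754 fell, and 162 of the 165 called genes named by the rule kept their call. Deviations from the group means correlated at -0.057, 0.031 and 0.103 between same-numbered samples, so the numbers were not taken to pair them. Of those 165 genes, 145 kept the call after median-of-ratios scaling, 130 after total scaling and 94 without the filter, and none of the 165 changed sign in these settings. Among genes that were not called, DNMT3A was at 0.046 after median-of-ratios scaling and 0.18 after total scaling, DDX58 ranged from -0.15 without 10 µM replicate 2 to 0.24 without control replicate 1 and was at -0.128 without control replicate 3, and IFIH1 ranged from -0.058 without 10 µM replicate 2 to 0.38 without control replicate 1 and was at -0.056 without control replicate 3. The cause was not tested. FPKM carry no depth, so values under about 1 kFPKM rest on few fragments, and on short genes higher values can do so too.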

Other observations

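Some gene families outside the lists were looked at after their values were seen, with no test of the families, beside shares of 5.32% called up and 4.32% called down over all genes. Annexins, which bind membranes in the presence of calcium, gave 8 falls and no rise among 13 tested entries, and 5 falls after scaling, with a median log2 difference of -1.11 beside -0.18 for all genes. ANXA10, a stomach annexin, was at 494, 369 and 328 kFPKM in the controls and 87.5, 129.9 and 74.5 kFPKM at 10 µM, a log2 difference of -2.04 ± 0.24 (SE), adjusted p = 0.00178. ANXA2 was at 5327, 5297 and 4423 kFPKM in the controls and 1550.4, 2788 and 2331 kFPKM at 10 µM, and its processed copies ANXA2P1 and ANXA2P2 are among the 8, so reads may be split between them. Cystatins, inhibitors of cysteine proteases, gave 5 rises and no fall among 8 tested in both fits. CST6 was at 38.6, 26.8 and 13.5 kFPKM in the controls and 171, 186 and 265 kFPKM at 10 µM, a log2 difference of 3.02 ± 0.34 (SE), adjusted p = 0.00159, and CST7, of leukocytes, was at 3.19, 3.52 and 1.99 kFPKM in the controls and 26.0, 27.0 and 21.9 kFPKM at 10 µM. CST1, CST4 and CSTA had log2 differences of 2.31, 2.78 and 1.37.

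Translation elongation factors gave 4 falls and no rise among 11 tested in both fits. EEF1A1, which brings tRNA to the ribosome, was at 24818, 25158 and 21771 kFPKM in the controls and 6607, 12510.5 and 9028 kFPKM at 10 µM, a log2 difference of -1.40 ± 0.38 (SE), adjusted p = 0.0317, and EEF1B2, EEF1G and EEF2 had log2 differences of -1.43, -1.33 and -1.33. Small Cajal body RNAs gave 6 rises and no fall among 23 tested, and 9 rises after scaling, but they are short and 1 fragment is worth many FPKM. Of 22 serpins 4 rose and 3 fell (4 and 2 after scaling), of 14 aldo-keto reductases 1 rose and 3 fell in both fits, and of 26 tetraspanins 2 rose and 2 fell (2 and 1 after scaling). Of 16 kallikreins 2 rose and 1 fell (2 and 0 after scaling), of 17 claudins 1 rose and 1 fell in both fits, and of 4 small proline-rich proteins 1 rose (2 after scaling).

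MALAT1, an abundant nuclear noncoding RNA, was at 34319500 and 36190100 FPKM in control replicates 1 and 2 and was listed at 0 in control replicate 3 and in all 3 samples at 10 µM. It was not called by limma (adjusted p = 0.0594). A value of 0 can be a failed estimate in this kind of file, which was not tested here.

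The comparison rests on 3 cultures a group of 1 cell line at 1 time. Values come from gene-level estimates, so isoforms were not compared. Methylation and protein were not measured.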
